A study of Mus musculus with 2 samples.

Results

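Fine cluster 4 is a group of 967 CD8 T cells among 8562 sequenced from inflamed mouse colon (11.3%), taken as the cells that the authors' annotation gives the value 4 in its column of 12 fine clusters. Cells came from the colon lamina propria of Rag1 KO hosts 6 to 10 weeks after T cell transfer. These hosts make no mature T or B cells of their own. The labels give an age of 8 to 12 weeks when transfer began. All hosts received splenic wildtype naive CD4 T cells, which drive the colitis. With them came splenic CD8 T cells from donors that carried loxP-flanked Bcl6 alleles (Bcl6fl/fl), either with the Cd8aCre transgene or without it. The annotation calls the groups Crep and Cren, read here as with and without Cre, a reading that no source spells out. Each group had 4 hashtag antibodies, numbered 1 to 4, and all cells went into 1 pooled 10x Genomics 5′ v2 library. Cluster 4 held 748 Crep and 219 Cren cells. What limits the groups as a model is that Cre is driven by Cd8a sequences, that no source says how many hosts or donors stand behind a hashtag, and that deletion of Bcl6 was not measured per cell.

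Activated CD8 T cells can become short-lived effector cells, which carry the lectin-like receptor KLRG1 and granules of granzymes and perforin and which circulate, or cells that settle in a tissue or keep a capacity to renew. Exit from tissue follows gradients of sphingosine 1-phosphate, sensed by S1PR1 and S1PR5, and the transcription factor KLF2 switches on S1pr1. Cells that stay in the gut wall typically carry the integrin CD103, encoded by Itgae, and CD69, and BCL6 is a repressor linked to memory and follicular programmes.

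Some of the genes the results turn on are shown by the 250 bases before their transcription starts, from the RefSeq tables for GRCm38.p6, all read on the minus strand, 5′ to 3′. S1pr5 led the cluster by its ratio to other cells (chr9:21248444-21248693, overlapped by an exon of the noncoding gene Gm48303), Gzma is the most abundant granzyme gene of the cluster (chr13:113100982-113101231), and Klra3 is the gene with the smallest p between the groups (chr6:130337627-130337876). Capitals mark CACCC or its reverse complement GGGTG, a core that KLF proteins bind.
S1pr5: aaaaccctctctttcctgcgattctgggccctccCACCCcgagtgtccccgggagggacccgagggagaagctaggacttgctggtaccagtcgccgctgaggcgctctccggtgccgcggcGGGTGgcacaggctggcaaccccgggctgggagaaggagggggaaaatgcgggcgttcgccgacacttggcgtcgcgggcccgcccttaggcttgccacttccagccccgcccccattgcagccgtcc
Gzma: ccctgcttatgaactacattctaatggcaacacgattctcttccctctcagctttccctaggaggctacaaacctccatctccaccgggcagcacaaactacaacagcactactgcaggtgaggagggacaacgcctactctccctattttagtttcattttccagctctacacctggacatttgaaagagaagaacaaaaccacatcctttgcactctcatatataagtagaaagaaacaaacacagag
Klra3: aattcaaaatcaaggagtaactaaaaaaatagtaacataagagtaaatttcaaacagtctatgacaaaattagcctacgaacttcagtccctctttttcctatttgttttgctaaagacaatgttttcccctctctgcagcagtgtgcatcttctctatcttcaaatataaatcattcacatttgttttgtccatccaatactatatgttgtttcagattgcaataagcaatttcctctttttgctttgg
The S1pr5 stretch held 2 matches and those of Gzma and Klra3 held 0. The T-box core GGTGTGA, with its reverse complement TCACACC, had 0 matches in each of these stretches. Among all 32851 promoters of the same length, 52.0% held the first core and 3.33% the second. Of the 20 leading genes described below, 17 had a promoter in the table, of which 11 held the first core and 1 the second. Counted by gene in the same way, 54.5% of all genes held the first core and 3.84% the second. These matches describe letters, not binding.

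The cluster carried the genes of CD8 T cells. Cd8b1, which encodes the beta chain of CD8, stood at 1310 CPM (the UMIs of a gene scaled to a fixed total over all genes of the same cells) against 939 CPM in the other 7595 cells, and 91.8% of cells had a UMI. Cd8a was lower, at 482 CPM against 928 CPM, the lowest level of the 12 clusters. Cd3e, a chain of the T cell receptor complex, was seen in 93.6% of cells. Both genes given as markers of the cluster led it as well: Gzma, a serine protease of killer granules, had 10110 CPM against 2363 CPM, and Klrg1 had 705 CPM against 137 CPM. At least 1 UMI of each was found in 69.9% of cluster 4 cells, against 39.8% in cluster 6, 54.4% in cluster 7 and 15.1% in all other cells. After every cell was thinned to 2000 UMIs, which left out 310 of the 967 cells, these shares were 62.6%, 30%, 47.8% and 11.6%. Most detected genes of the short-lived effector list were higher in the cluster, which is called short-lived-effector-like here as a description only. The list holds both marker genes and was chosen with earlier results of these data known. Among its members, Cd44 and Adgrg1 were lower than in other cells, as given below.

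Cells of the cluster were somewhat shallower than the rest. A cluster 4 cell had a median of 2367 UMIs, against 2815 in other cells, and a median mitochondrial share of 0.62% against 0.7%. The cluster held 2660295 UMIs, from 21053 in Cren 4 (11 cells) to 774476 in Crep 4 (333 cells), and Crep 4 alone gave 34.4% of its cells. Of the lists of other cell types, the innate lymphoid one summed higher than in other cells and the rest summed lower. The CD4 T cell list (6 genes) summed to 15.4 CPM against 42.8 CPM in other cells, with 7.70 to 47.5 CPM over Cren and 6.46 to 28.6 CPM over Crep hashtags. The innate lymphoid list (8 of 10 genes in the table) summed to 166 CPM against 106 CPM, led by Eomes, with 95.5 to 237 CPM over Cren and 116 to 201 CPM over Crep hashtags and Kit at 0. The myeloid list (11 of 12) summed to 218 CPM against 256 CPM with Csf1r at 0, and its range was 153 to 309 CPM over Cren and 158 to 293 CPM over Crep hashtags. The gamma-delta list (6 of 8) summed to 295 CPM against 510 CPM, of which the segment Trgv2 gave 236 CPM, with 95.0 to 592 CPM over Cren and 204 to 392 CPM over Crep hashtags and Trdv4 at 0. B cell and epithelial lists (3 of 8 genes each in the table) summed to 7.89 and 4.89 CPM, with Igkc at 0. The part of these lists in the results was not tested. Lyz2, a myeloid gene that T cells should lack, had a UMI in 11.3% of cluster 4 cells and 14.2% of others (9.13% and 10.2% after thinning). Whether free RNA gave these UMIs was not tested.

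The cluster was set apart most by genes of exit from tissue and of killer effector cells. All levels against other cells are a description with no test, since the cells were clustered on their genes. S1pr5, the sphingosine 1-phosphate receptor 5 (chromosome 9, 21242917 to 21248443, GRCm38.p6), had 105 CPM against 2.18 CPM, a ratio of 48.1, and a UMI in 21.4% of cells against 0.566% (16.4% and 0.3% after thinning). It read 77.0, 134, 83.2 and 190 CPM in Cren 1 to 4 and 129, 44.9, 123 and 111 CPM in Crep 1 to 4, so the cells of both groups carried it and their ranges overlapped. Cx3cr1, the receptor for fractalkine (chromosome 9, 120048683 to 120068296), had 205 CPM against 19.4 CPM, with 178 to 306 CPM in Cren and 127 to 271 CPM in Crep hashtags. Zeb2, a transcriptional repressor that promotes terminal effector differentiation, had 201 CPM against 49.4 CPM and Klf2 had 2472 CPM against 845 CPM. Each of these 4 genes was higher in cluster 4 than in the other cells of the same hashtag in 8 of 8 hashtags.

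Further leading genes came from several families. Among killer lectin receptors were Klra3, a Ly49 receptor for MHC class I, with a ratio of 6.53, and Klre1, with a ratio of 3.79. Signalling genes were Rap1gap2, which switches off the adhesion GTPase Rap1 (4.39), Rasgrp2, which switches Rap1 on (3.19), and Kcnj8, a potassium channel subunit (6.31). The leading 20 also held Borcs7 (3.93), Smpdl3b (3.23), Anxa1 (3.05), Fcgrt (3.02), Ifitm10 (2.88), Lpin1 (2.78), Lair1 (2.78), the unnamed transcript Gm31793 (4.22) and the receptor segment Trav19 (5.00). Of the 20, 15 had their highest level of the 12 clusters in cluster 4, and 12 were higher in 8 of 8 hashtags. With the 6 hashtags of at least 20 cells weighted equally, 17 of the 20 stayed among the 20 largest ratios; Trav19, Anxa1 and Lair1 did not, with ratios of 2.13, 2.08 and 2.12. Under that weighting the ratio was 34.2 for S1pr5, 9.05 for Cx3cr1, 4.15 for Klra3, 3.81 for Klrg1 and 3.57 for Gzma. Near-identical Ly49 genes can share reads, so values of Klra3 are uncertain to that degree.

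**Figure D1:**
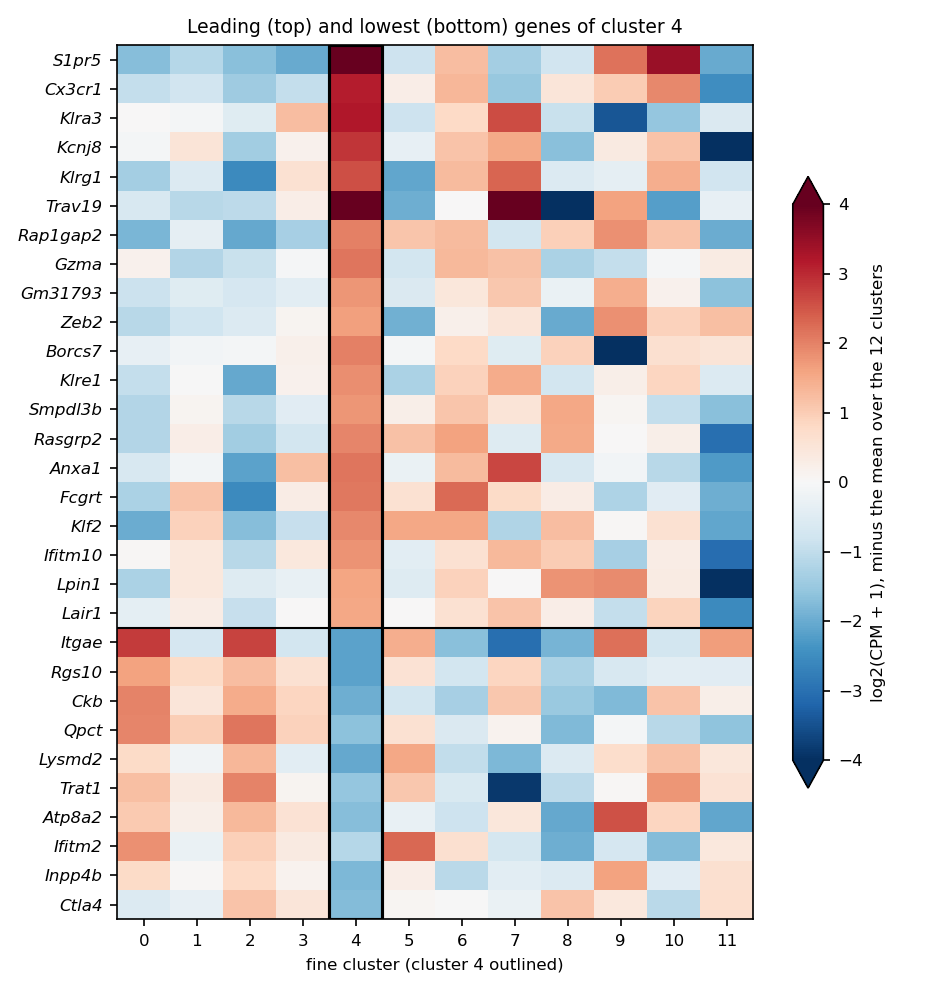
Rows are the 20 leading and 10 lowest genes of cluster 4, columns the 12 fine clusters, and colour is log2(CPM + 1) minus the gene's mean over the clusters, cut off at the ends of the scale. The outlined cluster 4 is red for all 20 leading genes and blue for all 10 lowest ones. Among the leading genes, Trav19, Klrg1 and Anxa1 are also red in cluster 7, where Anxa1 is higher than in cluster 4. Itgae is blue in clusters 6 and 7.

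The lowest genes were led by one of residence in tissue. Itgae, the alpha chain of CD103 (chromosome 11, 73090505 to 73147449), had 10.5 CPM against 141 CPM, a ratio of 0.0747, and was lower in 8 of 8 hashtags. Low as well were Rgs10, a brake on G protein signals (21.4 against 175 CPM), Ckb, the brain creatine kinase (10.1 against 80.8 CPM), Inpp4b, a phosphoinositide phosphatase (42.9 against 184 CPM), and Ctla4, the inhibitory receptor (45.9 against 191 CPM). Qpct, Lysmd2, Trat1, Atp8a2 and Ifitm2 filled the list of 10, at ratios of 0.129 to 0.224. Clusters 6 and 7 shared the low Itgae, with 14.9 and 5.27 CPM, so it marks cluster 4 off from the larger body of cells and not from these neighbours.

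Grouped by function, effector and trafficking genes were high and residence genes low. A member counts as detected where at least 5% of cells in or outside the cluster had a UMI, and as higher or lower at a ratio of 1.5 either way. Of all 6180 detected genes, 4.48% were higher and 4.61% lower by that measure, with a median ratio of 1.01. For short-lived effector markers, 10 of 11 detected members were higher (median ratio 2.37), among them Prf1, the pore-forming perforin (2.37), and Tbx21, which encodes T-bet (1.68). Cd44 was the exception among the detected members, at 0.78. Adgrg1, another member of this list, fell under the detection rule and was lower too, at 0.376 against 12.1 CPM. The list holds both genes given as markers, so its count is no independent support for the name. For trafficking and egress genes, 12 of 17 were higher (median 1.70), with S1pr1 at 2.14, S1pr4 at 1.72 and Itgb2, a chain of LFA-1, at 1.57. The chemokine receptor gene Cxcr3 was lower, at 0.43. In the killer lectin list, 6 of 9 were higher (1.96), and the lower one was Cd160, at 0.31. Of cytotoxic granule genes, 6 of 13 were higher and 0 lower (1.38), with Gzmk at 1.89, Gzmb at 1.74 and Ctsw at 0.84.

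All 12 detected genes of the tissue residency list were lower (median 0.421), including Cxcr6 (0.52), Cd69 (0.61) and the aryl hydrocarbon receptor gene Ahr (0.14). The stem-like and memory list had 8 of 12 lower and 0 higher (0.562), with Tcf7, the gene of TCF-1, at 35.3 against 120 CPM and Il7r, the interleukin 7 receptor, at 345 against 836 CPM. In the list of inhibitory receptors and exhaustion genes, 7 of 13 were lower (0.652), with Pdcd1 at 0.17 and Tox at 0.0759. Havcr2, which encodes TIM-3, and Entpd1, which encodes CD39, were the 2 higher ones, at 2.17 and 1.73. S100, annexin and galectin genes had 5 of 15 higher and 1 lower (1.38), with Lgals1 at 2.19 and Capg at 0.65. Of early response genes, 0 of 16 were higher and 2 lower (0.872). The chemokine Ccl5 was the most abundant gene named here, at 47232 CPM against 23464 CPM.

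**Figure D2:**
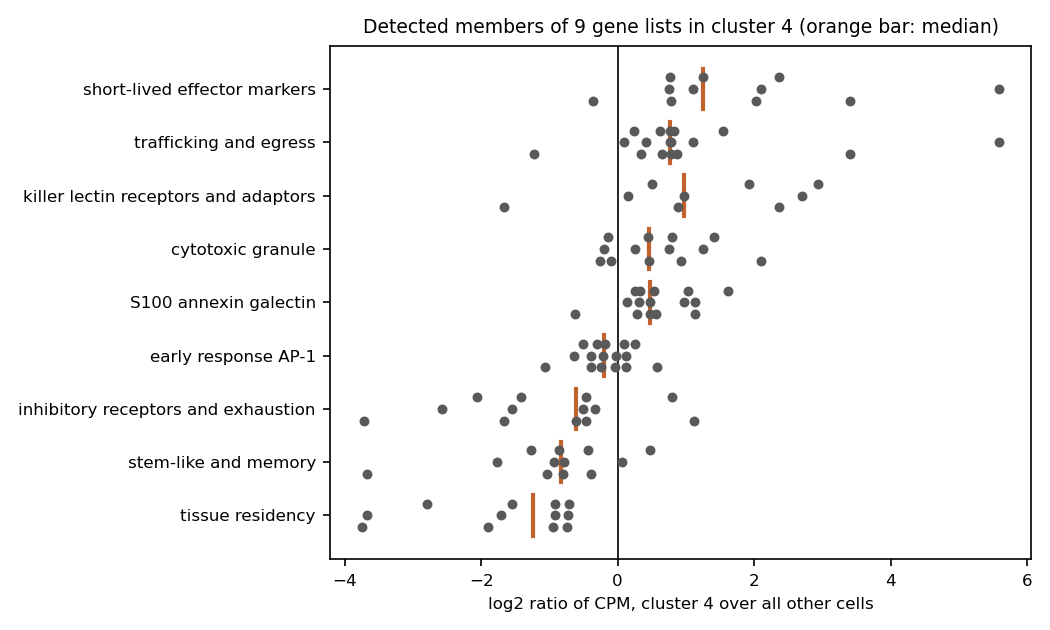
Each point is a detected gene of the list named on the left, placed by the log2 ratio of its CPM in cluster 4 to that in all other cells, and each orange bar is the median of the list. Residency genes all lie left of 0, and 10 of 11 short-lived effector genes lie right of it.

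Cluster 6 shared the high Klf2 and S1pr1 of cluster 4. Its Klf2 level was 1940 CPM and its S1pr1 level 187 CPM, above the 159 CPM of cluster 4. What it lacked was S1pr5, at 8.52 CPM, 12.3 times below cluster 4, and much of Cx3cr1 (56.7 CPM), Klra3 (17.9 CPM) and Zeb2 (73.7 CPM). Among the genes with the lowest ratio to cluster 6 were Nr4a1, an early response gene of the T cell receptor (277 against 891 CPM), Socs3, a feedback inhibitor of cytokine signals (29.3 against 90.8 CPM), and Ctla4 (45.9 against 154 CPM). Cluster 7 had Klrg1 close to cluster 4, at 593 CPM, and more Gzmk, at 1622 CPM against 1199 CPM. It had little of the exit genes: Klf2 was at 288 CPM, S1pr1 at 33.4 CPM, Cx3cr1 at 7.03 CPM and S1pr5 at 0.586 CPM, which is 1 UMI in 592 cells. Cluster 4 in turn was lower than cluster 7 in Ckb (ratio 0.11), Rgs10 (0.12) and Isg20 (0.24), an interferon-induced nuclease gene.

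Cluster 4 made up a larger share of the Crep than of the Cren cells, by a difference that did not pass the test. It held 16.1, 6.23, 18.3 and 31.8% of the cells of Crep 1 to 4, with 95% Wilson intervals of 14 to 18.5, 4.95 to 7.83, 16.0 to 20.8 and 29.1 to 34.7%. In Cren 1 to 4 it held 9.89, 1.72, 5.48 and 1.22%, with intervals of 8.38 to 11.6, 1.1 to 2.67, 4.28 to 6.99 and 0.684 to 2.18%. Crep 4 stood highest, and Crep 2 lay below Cren 1, so the groups overlapped. The means were 18.1% ± 10.5 in Crep and 4.58% ± 4.02 in Cren (SD, n = 4 each), a difference of 13.5 percentage points (exact two-sided permutation test, p = 0.0571, where the smallest possible is 0.0286). The difference was 8.96 points without Crep 4 (exact permutation p = 0.114), and 7.29 points (exact permutation p = 0.0857) without the cells that had a UMI of the receptor segments Trbv13-3, Trav19 or Trav3-3. With every cell of a hashtag summed, 0 of the 10 leading genes passed Crep against Cren, where 0.611% of all genes did (0.342% higher and 0.269% lower in Crep); Klra3 and Trav19 came nearest (edgeR adjusted p = 0.135 each). All 10 were nonetheless higher in Crep in those sums, which contain the share itself, from 0.54 for Rap1gap2 to 2.50 for Klra3 and 5.44 for Trav19 on the log2 scale. A larger share and higher levels of these genes cannot be told apart here. Cluster 6 held 8.16% ± 4.64 of Crep and 8.02% ± 6.25 of Cren cells, and cluster 7 held 13.6% ± 15.5 and 0.494% ± 0.274. In cell suspensions, shares add up to the whole, so a larger share here and fewer cells elsewhere cannot be told apart.

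Within the cluster, many Crep cells shared T cell receptor segments. These segments were picked out after their values were seen, and no test is given for them. Cells with UMIs of both Trbv13-3 (chromosome 6, 41130147 to 41130585) and Trav19 (chromosome 14, 53845322 to 53845827) numbered 18 of 164, 16 of 68, 32 of 183 and 169 of 333 in Crep 1 to 4, or 11.0, 23.5, 17.5 and 50.8%. In Cren 1 to 4 they numbered 0 of 129, 0 of 19, 0 of 60 and 1 of 11. A count of 0 allows up to 2.33, 15.8 and 5.00% of cells with both UMIs in the first 3 of these; it sets no limit on cells whose receptor went undetected. All 4 Crep hashtags thus held such cells, most of all Crep 4. Of the 643 Crep cells with both segments in the whole table, 235 were in cluster 4, 381 in cluster 7 and 27 elsewhere, so that 95.8% lay in these clusters. Cluster 6, in the same Crep hashtags and with a higher median depth (3019.5 UMIs), held them in 2, 0, 4 and 1 cells of Crep 1 to 4. The segment Trav3-3 was found with Trav19 in 24, 11, 26 and 114 cluster 4 cells of Crep 1 to 4 and in 0 of Cren.

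Beta segments were counted over all cluster 4 cells of each hashtag, those with both segments included. Trbv13-3 was the most frequent beta segment in Crep 2, 3 and 4 (36.8, 25.1 and 60.4% of cells), while Trbv19 came first in Crep 1 (27.4%). In Cren 1 the leading segment was Trbv12-2 (23.3%), and in Cren 3 it was Trbv1 (41.7%) followed by Trbv3 (33.3%). Cren 4, with 11 cells, had Trbv13-3 first as well (27.3%), and in Cren 2, with 19 cells, Trbv3 and Trbv31 were level (15.8% each). No Trbv UMI was found in 17.6% of cluster 4 cells and 10.8% of other cells. In the coarse clustering, 549 cells of cluster 4 lay in coarse cluster 3 and 415 in coarse cluster 4. Of the 236 cells with both segments, 234 were among those 415, together with many cells that lacked the pair.

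**Figure D3:**
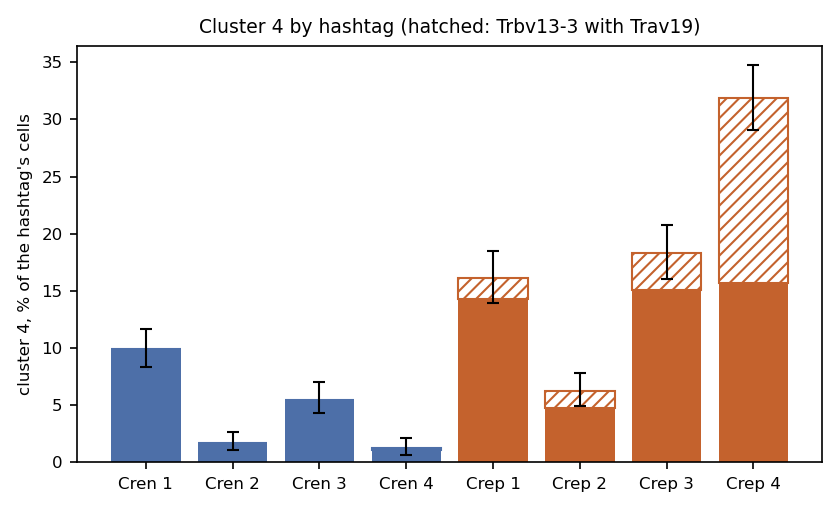
Bars give cluster 4 as a percent of all cells of each hashtag, with 95% Wilson intervals of the whole bar, and the hatched part is cells with UMIs of both Trbv13-3 and Trav19. Hatched cells make up about as much of the Crep 4 bar as the rest, and next to none of any Cren bar.

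Cells with both segments also differed in some effector genes from the 308 Crep cells of the cluster without a UMI of the 3 segments. Klrg1 was at 1080, 1323, 1442 and 862 CPM in the former and at 462, 718, 455 and 634 CPM in the latter over Crep 1 to 4, so it was higher in 4 of 4 hashtags. Gzmk (mean of the 4 hashtags 1581 against 901 CPM), Ly6c2, which encodes the effector and memory antigen Ly6C (4163 against 2441 CPM), and Eomes, a T-box factor (125 against 49.4 CPM), were higher in 4 of 4 as well. Lower in 4 of 4 were Tcf7 (6.24 against 40.3 CPM) and Cd160 (35.1 against 111 CPM). So was Il12rb2, a chain of the interleukin 12 receptor (54.4 against 134 CPM). Trbc2 (147 against 579 CPM) and Trbc1 (4.04 against 135 CPM), constant segments of the receptor beta chain, were lower in 4 of 4. Capg was lower in 4 of 4 too, but by sizes from 126 against 130 CPM in Crep 1 to 30.1 against 425 CPM in Crep 4; over all cells its ratio was 0.249, and 0.569 without Crep 4. Of the genes that mark the cluster, Gzma (10472 against 12430 CPM), S1pr5 (104 against 147 CPM) and Klf2 (2250 against 2458 CPM) were each lower in the mean and higher in 1 of 4 hashtags. Over all cells the ratio of S1pr5 was 0.655, and 1.11 without Crep 4. Other effector genes did not reach 4 of 4. Prf1 was level in the mean (169 against 170 CPM) and higher in 2 of 4 hashtags. Zeb2 (204 against 218 CPM) and Cx3cr1 (214 against 226 CPM) were lower in the mean and higher in 1 and 3 hashtags. Gzmb was higher in 3 (3796 against 3250 CPM). The share of all genes with 4 of 4 is not given here. Median depth was 2912.5, 4227.5, 2586.5 and 2269 UMIs in cells with both segments and 2347.5, 3472.5, 2607.5 and 1873.5 UMIs in cells with none, and its part in these differences was not tested.

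**Figure D4:**
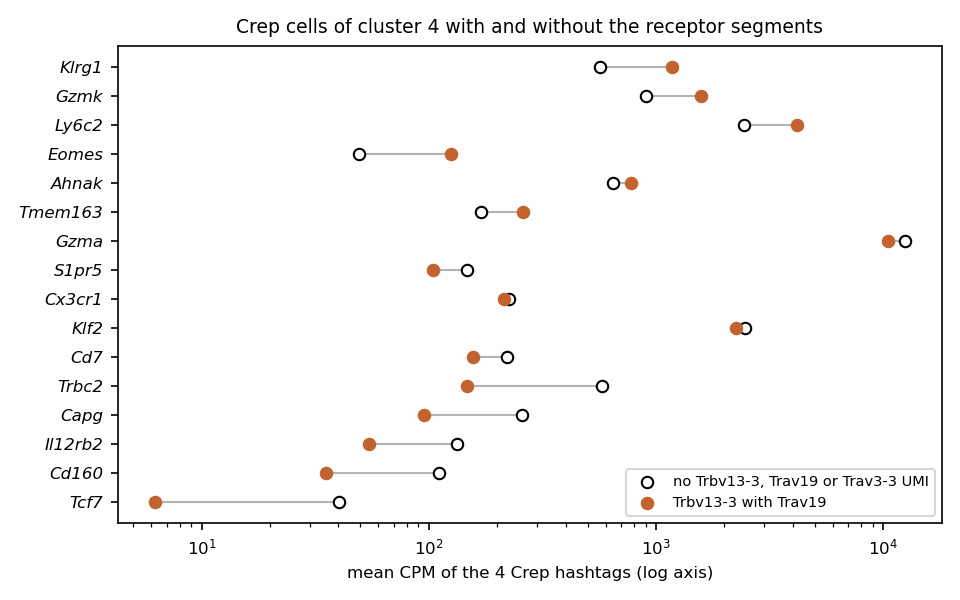
For each gene, the orange point is the mean CPM of the 4 Crep hashtags in cells of cluster 4 with UMIs of Trbv13-3 and Trav19, and the open point that in cells of the cluster with no UMI of Trbv13-3, Trav19 or Trav3-3, on a log axis. Klrg1, Gzmk and Ly6c2 lie higher and Tcf7, Cd160 and Capg lower in the cells with both segments.

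The comparison of Crep with Cren cells within the cluster asks what differed in cells of this state between the donor genotypes. The groups were not made up alike: of the cluster's cells, 47, 26, 59 and 275 in Crep 1 to 4 lay in coarse cluster 4, against 4, 0, 1 and 3 in Cren 1 to 4. The count of passing genes without those cells is given beside the result. UMIs were summed per hashtag, which left 4 Crep and 2 Cren hashtags (Cren 1 and 3) with at least 20 cells. Bcl6, the gene flanked by loxP sites (chromosome 16, 23965050 to 23988866), was low in every hashtag: 20.5, 19.1, 11.9 and 0 CPM in Cren 1 to 4 and 6.67, 20.4, 21.4 and 22.0 CPM in Crep 1 to 4. These levels rest on 11 and 37 UMIs, too few for the test, and the groups overlapped. In all other cells Bcl6 was higher in the hashtags labelled Crep, by 0.98 on the log2 scale (SE 0.18, edgeR adjusted p = 0.0173). The 5′ library counts the start of transcripts without exon information, so neither value tells whether the floxed part was deleted, and directions are between groups as labelled. Cd4 and Pdcd1 also had too few UMIs for the test in the cluster.

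Of 5682 genes tested, 10 passed (0.176%), 4 higher in Crep (0.0704%) and 6 lower (0.106%). Klra3 rose most clearly. It had 12.8, 0, 29.7 and 0 CPM in Cren 1 to 4 and 138, 69.4, 92.8 and 159 CPM in Crep 1 to 4, so that all Crep hashtags lay above all Cren ones. The mean was 115 ± 40.9 CPM (SD, n = 4) against 21.3 ± 11.9 CPM (n = 2). On the log2 scale this was 2.72 with an SE of 0.38 (edgeR, adjusted p = 1.07e-07). Only 10 Klra3 UMIs came from Cren, against 254 from Crep. Without Cren 1 the adjusted p of Klra3 was 0.169, with 1 Cren hashtag left that is assumed to vary like the others.

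The other 3 higher genes were of different kinds. Trav3-3, the receptor segment described above, rose from 5.14, 0, 0 and 0 CPM in Cren to 114, 131, 104 and 244 CPM in Crep (edgeR adjusted p = 0.0406). Its 330 UMIs against 2 give a ratio of 51.3, with an exact 95% interval of 14.1 to 425 for counting error only. Ahnak, which encodes a large scaffold protein, went up from 459 ± 116 CPM in Cren to 689 ± 21.8 CPM in Crep (log2 0.64 with SE 0.15; adjusted p = 0.0248); the small Cren 2 and 4, not in the test, had 573 and 760 CPM. Tmem163, which encodes a zinc transporter, stood at 109 ± 27.7 CPM in Cren and 210 ± 24 CPM in Crep (log2 0.87 with SE 0.22; adjusted p = 0.0406), while Cren 2 and 4 had 325 and 380 CPM, above every Crep hashtag. Without 1 hashtag, the adjusted p passed 0.05 for Ahnak (0.783 without Cren 1, 0.0813 without Crep 3), for Tmem163 (0.149 without Cren 1, 0.595 without Cren 3, 0.167 without Crep 1, 0.0841 without Crep 2) and for Trav3-3 (0.750 without Cren 1, 0.790 without Cren 3, 0.844 without Crep 2).

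Among the 6 lower genes, Cd28, which encodes the costimulatory receptor of T cells (chromosome 1, 60746388 to 60773359), fell from 180 and 184 CPM in Cren 1 and 3 to 89.0, 114, 114 and 54.2 CPM in Crep 1 to 4. The change was -1.02 on the log2 scale with SE 0.23 (edgeR, adjusted p = 0.0199), and Cren 2 lay among the Crep hashtags, at 57.3 CPM, with Cren 4 at 142 CPM. Cd7, a surface antigen gene of T and NK cells, fell from 334 ± 15.0 to 205 ± 27.3 CPM (log2 -0.69, SE 0.17), with an adjusted p of 0.05 to 2 decimals, just under the threshold. Lower as well were Jun, a part of AP-1 (841 ± 30.2 to 572 ± 78.3 CPM, adjusted p = 0.0406), and Hsp90ab1, a chaperone gene (2431 ± 522 to 1729 ± 138 CPM, 0.0406). The segment Trav10 had 26 UMIs in Cren and 2 in Crep (adjusted p = 0.00132), a ratio of 41.8 with an exact interval of 10.5 to 363 for counting error.

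**Figure D5:**
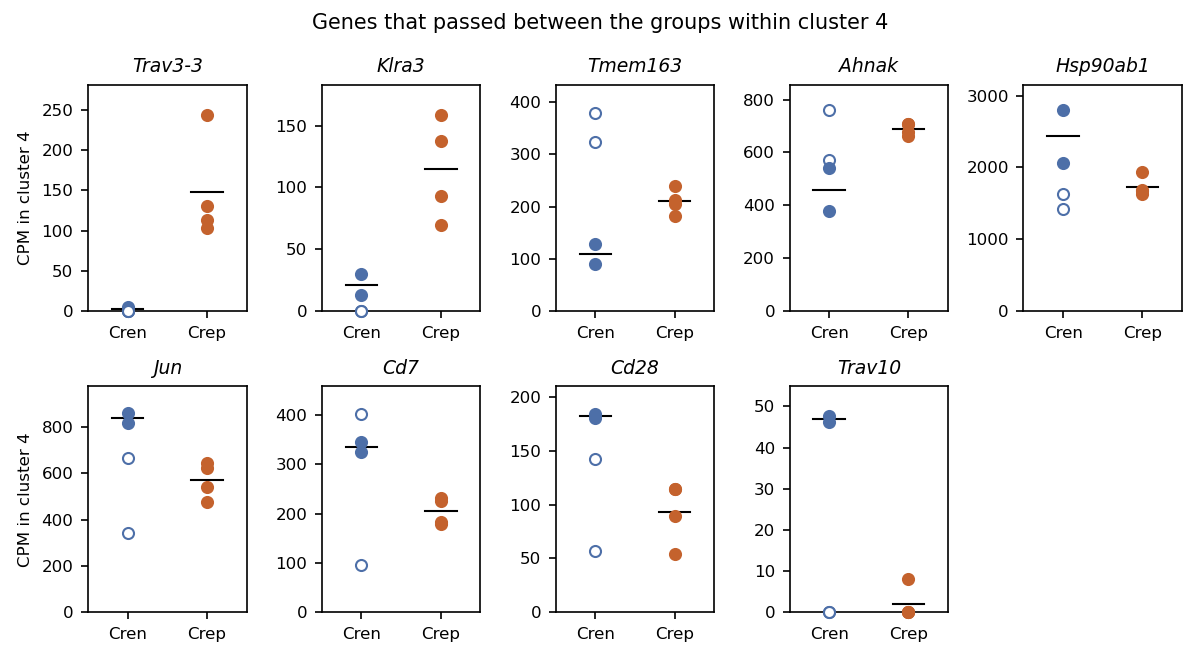
Each panel is a gene that passed between the groups within cluster 4 (1 of the 10 is not shown), each point the CPM of a hashtag, and each bar the mean of the tested hashtags; open points are Cren 2 and Cren 4, which had under 20 cells and were not tested. Klra3 and Trav3-3 separate all 8 hashtags, while both open points of Tmem163 and 1 of Ahnak lie above the Crep values.

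These calls were sensitive to which cells and hashtags entered. Without the cells that had a UMI of Trbv13-3, Trav19 or Trav3-3, 0 of 3636 genes passed in edgeR (160 had an unadjusted p under 0.05, against 334 of 5682 with all cells), and Klra3 was at 2.35 on the log2 scale with SE 1.14 (adjusted p = 0.997). Without the cells of coarse cluster 4, 1 of 4011 genes passed, a gene that was not among the 10 (190 had an unadjusted p under 0.05). With all 8 hashtags, including Cren 2 with 19 and Cren 4 with 11 cells, 2 genes passed, Klra3 and Trav3-3. The count was 5 without Cren 1 and 29 without Crep 4. Leaving out any of the 6 tested hashtags raised the adjusted p of Cd7 above 0.05 (0.0505 to 0.440); for Cd28 this held of 4 hashtags (0.498 without Cren 1, 0.154 without Cren 3, 0.119 without Crep 1, 0.154 without Crep 4), for Jun of 4 (0.435 without Cren 1, 0.464 without Cren 3, 0.379 without Crep 1, 0.0505 without Crep 3) and for Hsp90ab1 of 5 (0.0530 to 1.00; Crep 4 was the exception). Trav10 could not be tested without Cren 1 and passed without each of the other 5.

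Klrg1 and Gzma, the genes given as markers of the cluster, did not pass between the groups in the main test. The leading gene Klra3 did, as given above. Klrg1 had 637, 707, 327 and 190 CPM in Cren 1 to 4 and 665, 902, 705 and 795 CPM in Crep 1 to 4, which is 0.60 on the log2 scale with SE 0.18 (edgeR, adjusted p = 0.416); Cren 2 lay above Crep 1. It passed without Cren 1 (log2 1.27, adjusted p = 4.51e-04), without Crep 4 (log2 0.58, 0.0388) and with no count filter (log2 0.65, 0.00589), and without the cells of the 3 segments its log2 fold change was 0.14. Gzma ranged from 5367 to 10708 CPM in Cren and from 8311 to 12993 CPM in Crep (log2 0.44, SE 0.35, adjusted p = 0.997), with overlap. Its log2 difference was 1.02 without Cren 1 (adjusted p = 0.085) and 0.06 without Cren 3 (1.00). Another 4 genes had the smallest p among those higher in Crep without passing: Ly6c2 (log2 0.55, adjusted p = 0.0509), the segment Trav12-3 (0.0689; 62 UMIs against 2, ratio 9.64, exact interval 2.56 to 81.4), the kinase gene Camk1d (0.50, 0.102) and Dock11, an activator of small GTPases (1.06, 0.111).

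Across the lists, at most 1 member passed in each. All tested genes had a median of -0.0039 on the log2 scale, and 49.5% were positive. The stem-like and memory list had 7 of 10 tested members below 0 and a median of -0.51; Cd28 passed and Tcf7 (-1.07, SE 0.37, adjusted p = 0.468) did not. Tcf7 read 46.2, 76.4, 83.2 and 95.0 CPM in Cren and 42.3, 12.2, 37.5 and 16.8 CPM in Crep hashtags. These did not overlap, but the nearest values were 46.2 and 42.3 CPM. Cren 2 and 4 rest on 4 and 2 UMIs, and the share of all genes without overlap is not given here. S100, annexin and galectin genes had 13 of 15 above 0 and a median of 0.22, with Ahnak passing and Capg (0.92, adjusted p = 0.292) not. Early response genes had 12 of 16 below 0 and a median of -0.22, with Jun passing and Fos (-0.57, 0.191) not. In the killer lectin list 7 of 9 were above 0 (median 0.18), with Klra3 passing. No member passed in the cytotoxic granule (9 of 13 above 0, median 0.13), short-lived effector (8 of 11, 0.11), trafficking (11 of 17, 0.11), inhibitory receptor (4 of 10, -0.11) or tissue residency list (3 of 7, -0.0064).

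Shares of cells with a UMI, compared at 2000 UMIs per cell, gave no gene that passed among the 12 tested, and 4 against 2 hashtags cannot give an exact p under 0.133. Gzmb, the gene of granzyme B, was detected in 85.9 and 87.2% of cells in Cren 1 and 3 and in 95.5, 96.4, 89.7 and 94.0% in Crep 1 to 4. Tcf7 was detected in 11.1 and 20.5% in Cren and in 8.18, 1.82, 10.3 and 4.02% in Crep. These 2 genes separated the tested hashtags (exact two-sided p = 0.133, adjusted over the 12 genes 0.8 each). Hashtags in random order separate with that same probability of 0.133, so 2 of 12 genes is near the share that chance gives.

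For a small number of genes the Crep against Cren difference in cluster 4 differed from that in all other cells of the same hashtags (7 of 9060 tested, 0.0773%; 3 with a higher value in cluster 4, 0.0331%, and 4 with a lower one, 0.0442%). Rasgrp2, an activator of Rap1 and a leading gene of the cluster, was at 195 and 119 CPM in Cren 1 and 3 and at 218, 216, 241 and 239 CPM in Crep 1 to 4. Its log2 difference was 0.47 in the cluster and -0.50 in other cells, and these differed by 1.03 (SE 0.22, edgeR adjusted p = 0.0230). Ctla4 had 25.7 and 17.8 CPM in Cren 1 and 3 and 53.4, 73.5, 55.3 and 45.2 CPM in Crep 1 to 4, with log2 differences of 1.22 and -0.37 that differed by 1.69 (SE 0.37, adjusted p = 0.0230). Neither Rasgrp2 (adjusted p = 0.732) nor Ctla4 (0.386) passed within the cluster alone. AY036118, a transcript on chromosome 17 (39848112 to 39898385), differed by 0.49 (SE 0.10, adjusted p = 0.0430). Rasgrp2 lost its call without Cren 1, Cren 3, Crep 1 or Crep 2 (adjusted p = 0.112, 0.178, 0.107 and 0.0698), Ctla4 without Cren 1, Cren 3, Crep 2 or Crep 3 (0.461, 0.160, 0.0637 and 0.0671) and AY036118 without Cren 3, Crep 1, Crep 2 or Crep 3 (0.433, 0.107, 0.169 and 0.0781). Without the cells of the 3 receptor segments these 3 genes did not pass: Rasgrp2 was at 1.02 (adjusted p = 0.118), Ctla4 at 1.51 (0.449) and AY036118 at 0.33 (0.963). With DESeq2's size factors AY036118 was at 0.47 (0.0586), and without Crep 4, 13 genes passed.

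The other 4 were receptor alpha segments, whose Crep against Cren difference lay lower in the cluster than in other cells. Trav10 passed here too (adjusted p = 2.76e-04) but not without Cren 1 (0.125). Trav7-6 had 76 UMIs in Cren, 68 of them in Cren 1, and 0 in Crep, at least 81.5-fold lower against a floor of 3 UMIs over the Crep cells. Trav13n-1 had 10 UMIs, all in Cren 1, and 0 in Crep, at least 10.7-fold lower against the same floor. Trav13n-3 had 5 UMIs in Cren and 4 in Crep. Without Cren 1, Trav7-6 and Trav13n-1 had adjusted p-values of 1.00 each and Trav13n-3 a log2 difference of 0.42 in the opposite direction; Trav7-6 was also lost without Crep 2 (0.284) and Trav13n-1 without Crep 1 (0.316). Near-identical Trav copies can share reads, so the assignment among them is uncertain.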

How the data were processed

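One pooled gene expression library and its hashtag library were deposited as a table of UMI counts (12798 genes by 8562 cells) and an annotation of each cell by the authors, with its group, hashtag, fine and coarse clusters (12 and 8) and mitochondrial percent. The submitters' processing notes name Seurat 4.3.0, the build mm10, Cell Ranger 7.0.0 and bcl2fastq 2.20.0.422. Clusters were taken from the authors' annotation and no doublet caller was run. The cells, gene lists and tests were chosen with earlier results of these data known.

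Counts were summed per hashtag and tested with edgeR 4.0.16 (quasi-likelihood, filterByExpr, TMM, Benjamini-Hochberg adjustment, threshold 0.05) in R 4.3.3, for hashtags with at least 20 cells in cluster 4; the difference between cluster 4 and other cells was an interaction term. limma 3.58.1 and DESeq2 1.42.0 gave alternatives, and Python 3.11.15 with scipy 1.17.1 gave exact tests and thinning to 2000 UMIs. Replicates are hashtags; no source says that each is a separate mouse, so p-values measure the spread between hashtags, which may be technical. Confidence intervals and floors of 3 counts cover counting error only. Data were simulated for Crep against Cren in cluster 4 (5752 genes). A single dispersion served for all genes, and only genes of at least 20 CPM were changed. Of these, 32% changed 2-fold and 80% changed 4-fold were recovered, with 2 false calls. Dispersion differs between genes in the real data, so these rates need not hold there.

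Genes were named by rule: the 20 largest and 10 smallest CPM ratios to other cells among genes with a UMI in at least 10% of cells, the largest ratios to clusters 6 and 7, genes that passed with an average log2 CPM of at least 5, where fewer than 5 passed in a direction also the 8 of smallest p, the genes of smallest interaction p, Bcl6, Cd4, Pdcd1, Gzma and Klrg1, and list members of smallest p; Trav10 and the cells sharing receptor segments were added after their values were seen. A gene that passed the test and a marker of another cell type are not reported here. Alternatives were other normalization, filter, tools, a replicate block, cell minimums, left-out hashtags and left-out cells. Sequences and positions come from RefSeq tables (GRCm38.p6).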

Additional observations from a re-analysis of the deposited data

Results flagged for a closer look

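Among 43 groups of 4 hashtags tested, 10 held a hashtag far from the other 3, where chance gives about 1 in 20 groups. Several of these are counts near 0, in which a single hashtag with UMIs stands apart. In cluster 4, Cren 4 stood apart with 9.09% of cells having Trbv13-3 and Trav19, which is 1 cell of 11. Bcl6 was low in Crep 1, at 6.67 CPM. Crep 3 was high for Hsp90ab1 (1933 CPM). Cren 1 stood apart for Pdcd1 (25.7 CPM), Trav13n-1 (25.7 CPM), Trav13n-3 (12.8 CPM) and Trav3-3 (5.14 CPM). Crep 1 did so for Trav13n-3 (8.90 CPM) and Crep 2 for Trav10 (8.16 CPM).

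For 7 genes the Crep against Cren difference in cluster 4 differed from that in other cells by the edgeR interaction term. These log2 differences were 1.69 for Ctla4, 1.03 for Rasgrp2 and 0.49 for AY036118, and -4.72, -8.57, -5.35 and -8.49 for the receptor segments Trav10, Trav13n-1, Trav13n-3 and Trav7-6.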

How the results depend on the processing

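Within cluster 4, 10 genes passed between Crep and Cren. The count was 25 with no count filter (7 of them among the 10), 4 with DESeq2 (2), 4 with limma-voom (3), 32 with the replicate block (8), 6 with cells of at least 1500 UMIs (6), 2 with hashtags of at least 10 cells (2), 23 with both that minimum and the replicate block (3), 0 without cells of the 3 receptor segments and 1 without cells of coarse cluster 4 (0). Leaving out each hashtag gave 5 to 29. For the interaction, 7 genes passed; the count was 17 with no filter (7 shared), 12 with hashtags of at least 10 cells (4), 4 without the segment cells (3), and 6 to 13 with a hashtag left out. The difference in share ranged from 8.96 to 17.5 points with a hashtag left out. The log2 difference of Trav13n-3 was between -5.62 and 0.42 with a hashtag left out, above 0 without Cren 1. Thinned detection gave 0 under each alternative run, but none of these had enough hashtags for an exact p under 0.05. The cause of these changes was not tested. Settings added after seeing the data are the minimum of 10 cells and the left-out segment or coarse cluster 4 cells. For single genes, 172 values kept their direction and side of the threshold, 115 lost the call, 5 gained it and 1 reversed. Deviations of same-numbered hashtags correlated at -0.078, 0.21, 0.21 and 0.12; since 1 of the 4 lies below 0.1 and no label ties the numbers, hashtags were not treated as paired. With the replicate block Cd28 (adjusted p = 0.0595) and Cd7 (0.245) did not pass, and with the block and at least 10 cells Gzma (log2 0.78, adjusted p = 1.33e-04) and Klrg1 (0.67, 0.0302) did. With 11 and 19 cells, Cren 4 and Cren 2 limit any comparison, and only 2 Cren hashtags entered the tests.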

Other observations

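Cells with Trbv13-3 and Trav3-3 but no Trav19 were also counted, after their values were seen. Cluster 4 held 0 such cells from Cren and 4, 3, 4 and 10 from Crep 1 to 4. Outside clusters 4 and 7 there were 5, 1, 2 and 29 from Cren 1 to 4, so Cren 4 held most of them.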
